A study of Mus musculus with 4 samples.

Results

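The 66 replication-dependent histone genes were taken from the 18560 genes of a table of RNA-seq counts by their symbols, namely all Hist1 to Hist4 genes of the H1, H2A, H2B, H3 and H4 classes and the newer names of the same families, of which only H1f0 was present. They comprised 7 genes of the linker histone H1, 18 of H2A, 17 of H2B, 11 of H3 and 13 of H4. Of these, 53 lay in the Hist1 cluster on chromosome 13, 9 in the Hist2 cluster on chromosome 3, 2 at the Hist3 locus on chromosome 11, 1 at the Hist4 locus on chromosome 6, and H1f0 on chromosome 15 (GRCm38.p6). H1f0 is not replication-dependent in its known biology, and Hist1h1t and Hist1h2aa are known as testis genes. Hist2h2be codes for an H2B variant known in the mouse mainly from olfactory neurons. These genes entered through the symbol rule alone. RNA had been sequenced from Th0 cells, that is CD4+ T cells of mouse spleen activated through CD3 and CD28 without polarising cytokines, of the C57BL/6 strain. The KO group was 2 libraries with the genotype label Setd2-CD4 cre (replicates 9 and 12), and the WT group was 2 wild type libraries (replicates 1 and 6). In such a cross the Cre recombinase is driven by Cd4 control elements, which are active in developing T cells of both the CD4 and the CD8 lineage, so other cells keep the gene. The time of stimulation is given as 3 days in the sample labels, as 2 days in the series' design text, and by the number 48 without a unit in the titles. The labels do not say that replicates were separate mice, and the p-values therefore reflect the spread among these 4 libraries alone, part or all of which may be technical.

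Each nucleosome wraps DNA around an octamer of H2A, H2B, H3 and H4, and H1 binds the DNA between nucleosomes. The replication-dependent genes supply these proteins in S phase, when newly copied DNA has to be packed. Most of their mRNAs have no introns and end in a conserved stem-loop bound by SLBP instead of a poly(A) tail, although some histone genes, H1f0 among them, make polyadenylated mRNA. Activated T cells divide fast and therefore have many cells in S phase. SETD2 is the methyltransferase that trimethylates histone H3 on a lysine over transcribed gene bodies.

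The libraries held between 17284613 and 20418766 counts, and 12816 genes passed the filter on low counts and were tested. Setd2 itself had 127 and 113 CPM in KO replicates 9 and 12, against 157 and 174 CPM in WT replicates 1 and 6, where CPM is the count relative to the TMM-scaled library size. Both KO libraries were below both WT libraries without passing the test (log2 fold change -0.47, SE 0.21, adjusted p = 0.421 in edgeR), and with the trend on gene length removed it was -0.09. Gene-level counts also cover exons that a conditional allele keeps. The 5 genes measured of the CD4 T cell marker list were Cd3e, Cd3d, Cd3g, Cd4 and Cd28. All 5 were lower in both KO libraries than in both WT libraries, a pattern seen in 24.3% of all genes tested. They summed to 1572 and 1427 CPM in KO libraries and 1841 and 2124 CPM in WT libraries, and 0 were called. Markers of cells outside a CD4+ sort were present as well. The CD8 T cell markers Cd8a and Cd8b1 summed to 432 and 323 CPM in KO libraries and 260 and 330.4 CPM in WT libraries. The B cell markers Ms4a1, Cd79a, Cd79b and Pax5 summed to 135 and 217 CPM in KO libraries and 182 and 119 CPM in WT libraries. The 3 NK cell markers summed to 5.92 and 4.34 CPM in KO libraries and 1.83 and 4.502 CPM in WT libraries, and the 2 plasma cell markers to 4.41 and 5.47 CPM in KO libraries and 2.54 and 6.98 CPM in WT libraries. KO replicate 12 and WT replicate 6 were the pair farthest apart over all genes, with a chi-square per degree of freedom of 150.5, and KO replicate 9 and WT replicate 1, of different genotype, were the closest pair at 28.5.

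The stem-loop is the feature that sets these mRNAs apart, so the sites of 5 members are shown as they stand in the GENCODE vM21 transcripts, 5′ to 3′ on the transcript strand, with the 16 bases of the searched motif in capitals.
Hist1h2ap: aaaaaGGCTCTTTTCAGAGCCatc
Hist3h2a: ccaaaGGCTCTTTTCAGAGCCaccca
Hist3h2ba: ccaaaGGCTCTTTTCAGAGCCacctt
Hist1h3c: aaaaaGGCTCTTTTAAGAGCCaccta
Hist1h4i: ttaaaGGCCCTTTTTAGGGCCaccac
The motif searched was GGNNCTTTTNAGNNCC, on the transcript strand after the coding part. It was found in 43 of the 66 members, and in 41 of the 48 whose annotated transcript had at least 60 bases after the coding part. Over all coding genes 61 of 21877 (0.279%) held it, of which 18 were not members. It began a median of 32 bases after the stop codon in the members (range 22 to 59). The variant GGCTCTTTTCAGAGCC was carried by 25 members, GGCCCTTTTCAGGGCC by 7, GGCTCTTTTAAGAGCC by 6, and 3 further variants by 5 members. H1f0 and Hist2h2be, the 2 members whose deposited values implied a length of at least 2000 bases, had no match. The other 59 members with a count had implied lengths under 1000 bases. Some of these, such as Hist1h2bc, Hist1h4a and Hist1h3g, also had no match, with at least 60 bases after the coding part. Whether RNA was selected by poly(A) or depleted of ribosomal RNA is not given in the sources used here. Of 19 symbols on a list meant for RNAs without a poly(A) tail, 0 had a line in the table used here to show it.

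The 66 members held a small part of every library, 0.0374% and 0.0420% of counts in KO libraries and 0.0408% and 0.0426% in WT libraries. Because the kind of RNA selection is not given, these shares describe the counts and not the amount of histone mRNA in the cells. The same limit holds where H1f0 or the replication-independent genes are set beside the other members. Summed over the 66 genes, the members held 375 and 442 CPM in KO replicates 9 and 12, and 408 and 404 CPM in WT replicates 1 and 6. The WT libraries lay between the KO libraries, and the log2 ratio of the means was 0.01. In bulk RNA, fewer cells that express histone mRNA and less of it per cell cannot be told apart. H2A held most of these counts, with 282 and 332 CPM in KO libraries and 297 and 317 CPM in WT libraries, and per gene length it also led, with 652 and 723 FPKM in KO libraries and 684 and 777 FPKM in WT libraries. The H1 sum was 65.5 and 56.1 CPM in KO libraries and 69.3 and 54.5 CPM in WT libraries. The H2B, H3 and H4 sums were lower in every library. For H2B the sums were 9.57 and 17.4 CPM in KO libraries and 15.0 and 17.6 CPM in WT libraries, and for H4 they were 9.69 and 16.9 CPM in KO libraries and 13.4 and 9.31 CPM in WT libraries. The H3 sum had the widest ratio between libraries of the same genotype, with 7.89 and 20.6 CPM in KO libraries and 13.8 and 6.42 CPM in WT libraries. The KO and WT libraries overlapped in the sum of each of the 5 classes.

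**Figure D1:**
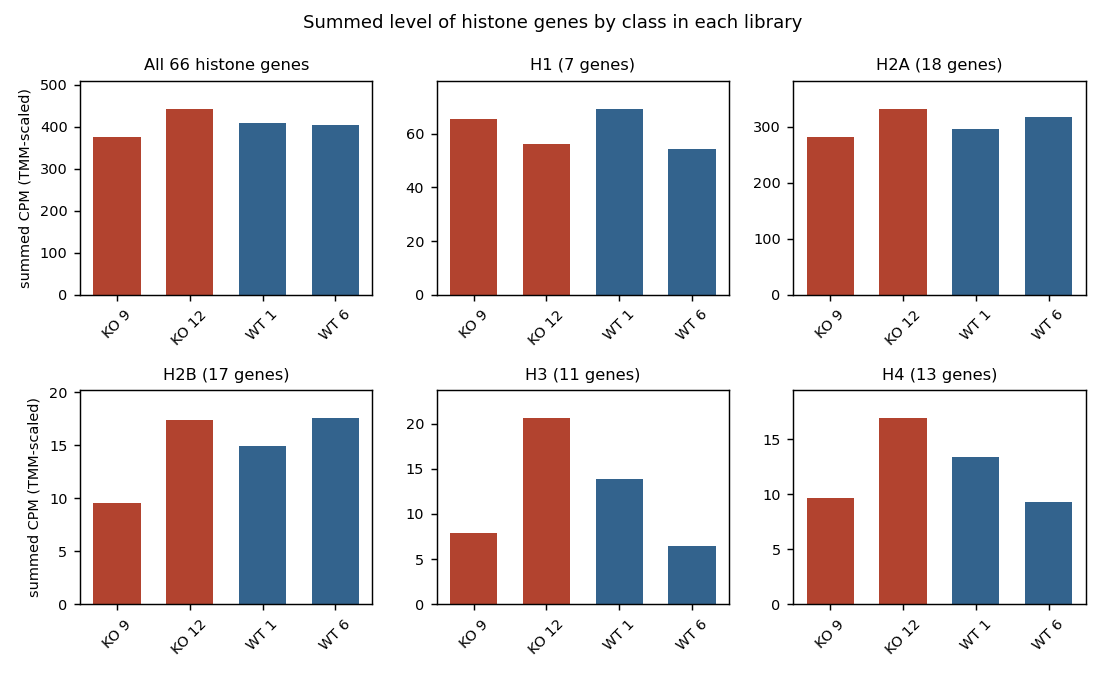
Summed level of the histone genes in each library (bars, CPM scaled by TMM, axes from 0), for all 66 genes and for each class, with KO libraries in red to the left of WT libraries in blue. The sum over all genes lies between 375 and 442 CPM, and the H3 sum is highest in KO replicate 12 (20.6 CPM) and lowest in WT replicate 6 (6.42 CPM).

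These sums rested on few genes. Hist1h2ap alone held 66.5% and 63.8% of the members' CPM in KO libraries and 61.8% and 71.4% in WT libraries. H1f0 held a mean of 94.0% of the H1 sum, Hist1h4i 62.5% of the H4 sum and Hist1h3c 43.5% of the H3 sum. Only 3 members averaged at least 10 CPM (Hist1h2ap, H1f0 and Hist1h2ao), 16 averaged between 1 and 10 CPM, and 47 averaged under 1 CPM. A count was seen for 48 and 51 members in KO replicates 9 and 12 and for 50 and 40 members in WT replicates 1 and 6. The 5 members with no count in any library were Hist1h1t, Hist1h3d, Hist2h2aa2, Hist2h2ab and Hist2h4. On the deposited scale per gene length (FPKM), the members summed to 741 and 869 FPKM in KO libraries and 806 and 862 FPKM in WT libraries. The 11 replication-independent histone genes listed, H1f0 included, summed to 1478 and 1691 FPKM in KO libraries and 1591 and 1532 FPKM in WT libraries.

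No member passed the test between genotypes. Of the 66, 32 had enough counts to be tested, and of these 0 were called higher and 0 lower in KO at an adjusted p of 0.05 in edgeR, where 0.0078% of all genes tested were called higher and 0% lower. DESeq2 also called 0 of the 32, for 9 of which it gave no adjusted p, where it called 0.687% of all genes higher and 0.757% lower. At an unadjusted p under 0.05, 0 members were higher and 2 lower (Hist2h2be and Hist3h2ba), against 6.23% of all genes higher and 5.73% lower. Both KO libraries were above both WT libraries in 2 members, Hist1h2ai and Hist1h2bk, a pattern seen in 25.4% of all genes. They were below both WT libraries in 4 members, Hist2h2be, Hist3h2a, Hist3h2ba and Hist1h4i, where the share over all genes was 24.3%. The log2 fold change was above 0 in 20 members and below 0 in 12, with a median of 0.21 and a range of -2.03 to 2.04. Over all genes tested the median was -0.002 and 49.8% were above 0. The median by class was 0.16 for the 3 H1 genes tested, 0.17 for 9 H2A, 0.05 for 8 H2B, 0.43 for 7 H3 and 0.60 for 5 H4 genes. The members' median turned on single libraries, being 1.09 without WT replicate 1, 0.74 without KO replicate 9, -0.12 without WT replicate 6 and -0.17 without KO replicate 12.

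**Figure D2:**
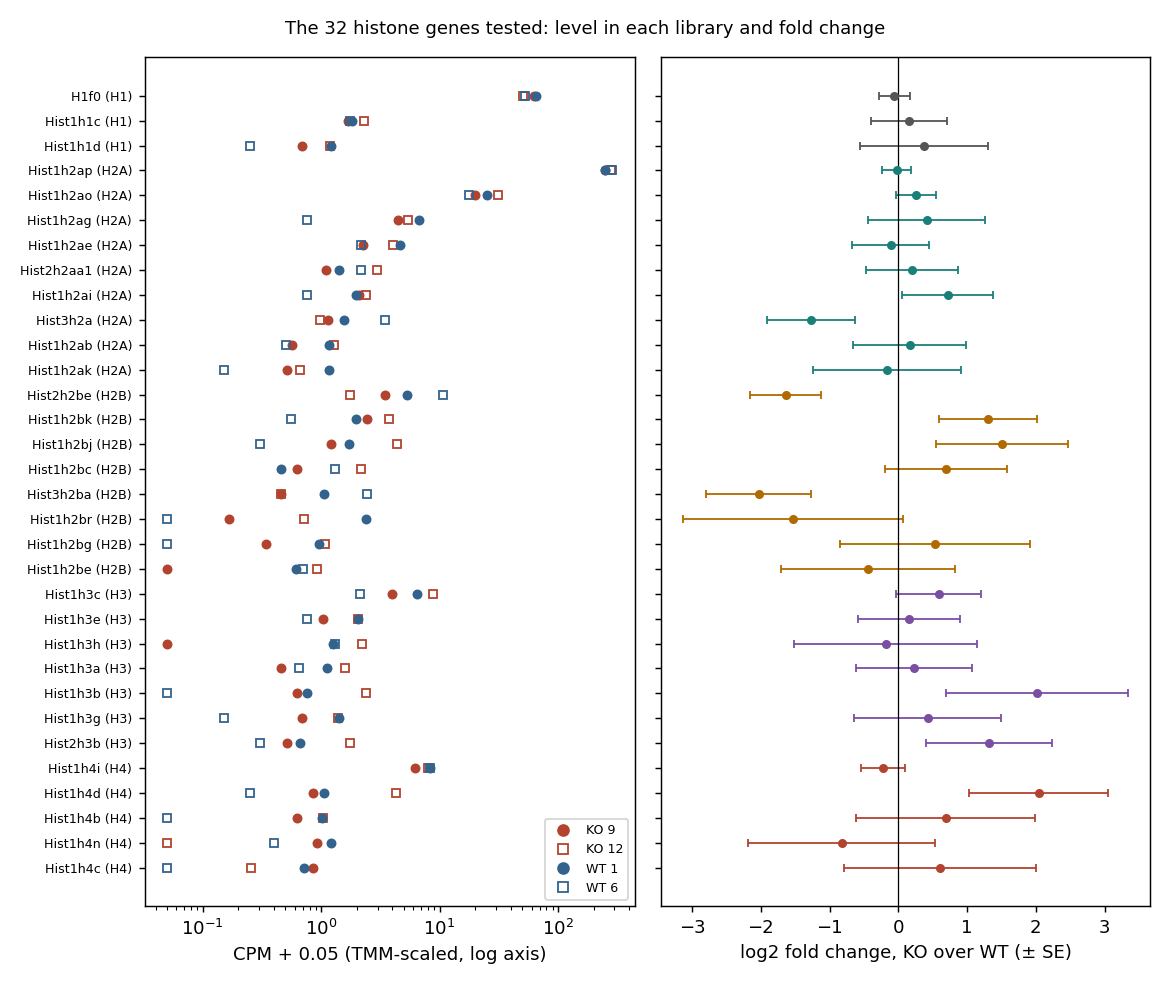
The 32 members tested, grouped by class. Left, the level in each library (CPM plus 0.05, log axis; KO in red, WT in blue); right, the log2 fold change KO over WT with its SE. The H2A genes Hist1h2ap and Hist1h2ao and the H1 gene H1f0 stand above 10 CPM, and the error bars are wide for genes near or under 1 CPM, up to an SE of 1.60 for Hist1h2br.

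Among the linker histones, H1f0 had the most counts and, at a mean of 25.1 FPKM, the highest level per length. It encodes the H1 form that accumulates in cells that have left the cycle. It had 62.5 and 50.5 CPM in KO libraries, against 65.4 and 52.2 CPM in WT libraries. The groups overlapped, and the log2 fold change was -0.06 (SE 0.23, adjusted p = 0.927 in edgeR). Hist1h1c, a replication-dependent H1 gene found in most somatic cells, had 1.62 and 2.27 CPM in KO libraries and 1.78 and 1.72 CPM in WT libraries. Its groups overlapped too, and its log2 fold change was 0.16 (SE 0.55, adjusted p = 0.916). Hist1h1d, another somatic H1 gene, had 0.638 and 1.14 CPM in KO libraries, against 1.17 and 0.202 CPM in WT libraries. WT replicate 6 stood lowest, and the log2 fold change was 0.37 (SE 0.93, adjusted p = 0.876). Without H1f0 the H1 sum was 2.96 and 5.58 CPM in KO libraries and 3.87 and 2.28 CPM in WT libraries, a log2 ratio of 0.47, with overlapping groups.

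Hist1h2ap (gene ID 319171; chr13:21833024-21833475, GRCm38.p6) codes for a canonical H2A and had the highest level of the members on both scales. It ranked 117th of the 18560 genes by FPKM and 658th by CPM. It had 587 and 631 FPKM in KO libraries, against 595 and 719 FPKM in WT libraries. In CPM it had 249 and 282 in KO libraries, against 252 and 289 in WT libraries. Within each genotype the libraries differed more than the genotypes did, and the log2 fold change was -0.02 (SE 0.21, adjusted p = 0.968 in edgeR). Hist1h2ao (chr13:21810367-21810918), which lies 22105 bases away and has the same coding sequence in every stretch of 100 bases, had 20.02 and 30.9 CPM in KO libraries and 24.9 and 17.8 CPM in WT libraries. The groups overlapped, with a log2 fold change of 0.25 (SE 0.29, adjusted p = 0.700). Hist1h2ag, a further H2A gene, had 4.41 and 5.32 CPM in KO libraries, against 6.61 and 0.708 CPM in WT libraries. The low value of WT replicate 6 set its log2 fold change of 0.41 (SE 0.85, adjusted p = 0.844), since without that library it was -0.44. All coding stretches of 100 bases of Hist1h2ag also occur in other members, so its values depend on how RSEM divided reads. The other 6 H2A genes tested had log2 fold changes between -1.27 (Hist3h2a) and 0.72 (Hist1h2ai). Leaving out Hist1h2ap and Hist1h2ao, the H2A sum was 12.8 and 18.5 CPM in KO libraries and 19.6 and 10.2 CPM in WT libraries, with overlapping groups.

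In the H2B class the leading members differed in how they varied across libraries. Per length, Hist1h2bj and Hist1h2bk led with means of 4.51 and 4.42 FPKM, against 2.49 FPKM for Hist3h2ba and 2.01 FPKM for Hist2h2be. Hist1h2bk had 2.38 and 3.67 CPM in KO libraries, against 1.93 and 0.506 CPM in WT libraries. Both KO libraries were above both WT libraries, but the log2 fold change of 1.31 (SE 0.72) did not pass the test (adjusted p = 0.455 in edgeR). Of its coding stretches of 100 bases, 94.3% also occur in other members. Hist1h2bj had 1.16 and 4.34 CPM in KO libraries and 1.68 and 0.253 CPM in WT libraries. KO replicate 12 was highest and WT replicate 6 lowest, and the groups overlapped (log2 fold change 1.51, SE 0.96, adjusted p = 0.496). Hist2h2be ran the other way, and its share of the H2B sum was 35.8% and 9.79% in KO libraries and 35.0% and 61.1% in WT libraries. The H2B sum had a log2 ratio of -0.27 in CPM but 0.23 in FPKM, where the long Hist2h2be weighs less.

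Of the H3 genes, which all code for the canonical forms that carry the lysine SETD2 methylates, Hist1h3c led with a mean of 11.6 FPKM. It had 3.89 and 8.83 CPM in KO libraries, against 6.41 and 2.07 CPM in WT libraries. The groups overlapped, and the log2 fold change of 0.59 (SE 0.62, adjusted p = 0.673 in edgeR) was -0.01 without WT replicate 6 and -0.13 without KO replicate 12. Hist1h3e had 0.986 and 2.01 CPM in KO libraries and 1.98 and 0.708 CPM in WT libraries, so that KO replicate 12 and WT replicate 1 were alike (log2 fold change 0.16, SE 0.74, adjusted p = 0.936). Hist1h3h had 0 and 2.17 CPM in KO libraries, against 1.22 and 1.26 CPM in WT libraries. Its 0 in KO replicate 9 compares with a limit of 0.174 CPM that 3 counts would give there, and 92.0% of its coding stretches of 100 bases also occur in other members (log2 fold change -0.18, SE 1.33, adjusted p = 0.961). Of the 7 H3 genes tested, 6 were highest in KO replicate 12 and 5 lowest in WT replicate 6. Of 505 other genes tested with lengths of 300 to 800 bases, 386 were highest and 304 lowest in those libraries. For the 158 of them that averaged under 10 CPM the counts were 72 and 50. Over all 12816 genes tested the counts were 4541 and 4244.

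Hist1h4i led the H4 class with a mean of 20.6 FPKM. It had 6.21 and 8.002 CPM in KO libraries, against 8.29 and 8.29 CPM in WT libraries. Both KO libraries were below both WT libraries, but KO replicate 12 was closer to WT than to KO replicate 9 (log2 fold change -0.22, SE 0.32, adjusted p = 0.762 in edgeR). Hist1h4d had 0.812 and 4.23 CPM in KO libraries, against 1.02 and 0.202 CPM in WT libraries. KO replicate 9 was below WT replicate 1, and the log2 fold change of 2.04 (SE 1.01, adjusted p = 0.430) was the highest of the members tested. Hist1h4b had 0.580 and 0.981 CPM in KO libraries, against 0.966 and 0 CPM in WT libraries (log2 fold change 0.69, SE 1.30, adjusted p = 0.826). Its 0 in WT replicate 6 compares with 0.152 CPM for 3 counts.

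The 34 members that were not tested averaged at most 0.498 CPM each. Together they held 4.29 and 10.02 CPM in KO libraries, against 4.78 and 4.60 CPM in WT libraries, with KO replicate 12 highest. Of all 66, 16 had fewer than 10 counts in total over the 4 libraries. The limits given for 0 cover counting error only.

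Of the 4 lowest log2 fold changes, 3 belonged to genes outside the Hist1 cluster, and the other, -1.54 for Hist1h2br, had an SE of 1.60. Hist2h2be (gene ID 319190; chr3:96221072-96223738) codes for the H2B variant H2BE, known in the mouse mainly from olfactory neurons. It had 3.42 and 1.70 CPM in KO libraries, against 5.24 and 10.7 CPM in WT libraries. All KO values were below all WT values, and WT replicate 6 was well above WT replicate 1. The log2 fold change was -1.64 (SE 0.52, adjusted p = 0.394 in edgeR, adjusted p = 0.148 in DESeq2), so the difference did not pass the test. Without WT replicate 6 it was -1.04 and without KO replicate 9 it was -2.23. The median over 1778 genes of like length (2400 to 3000 bases) was 0.01.

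Hist3h2ba (chr11:58948911-58949372), an H2B gene, had 0.406 and 0.413 CPM in KO libraries, against 1.02 and 2.38 CPM in WT libraries. The KO libraries were alike and both below WT, with WT replicate 6 highest. Its log2 fold change was -2.03 (SE 0.76, adjusted p = 0.413 in edgeR), and -1.30 without WT replicate 6. Hist3h2a (chr11:58954685-58955192), the H2A gene that lies 5312 bases from it, had 1.10 and 0.929 CPM in KO libraries, against 1.53 and 3.39 CPM in WT libraries. The order of the libraries was nearly the same, and the log2 fold change was -1.27 (SE 0.64, adjusted p = 0.437), and -0.59 without WT replicate 6. Neither passed the test. Hist2h2be, Hist3h2a and Hist3h2ba shared no coding stretch of 100 bases with another member. The locus of Hist3h2a is overlapped by Trim17 and that of Hist3h2ba by Gm51864, and since the strand setting of the counting is not given in the sources used here, reads of such pairs cannot be told apart.

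By genomic cluster, chosen after the values were seen, the Hist3 sum was 1.51 and 1.34 CPM in KO libraries, against 2.54 and 5.77 CPM in WT libraries. The KO libraries were both below the WT libraries (log2 ratio -1.54). Without WT replicate 6, which held the highest value, the ratio was -0.84. The Hist2 sum was 5.40 and 7.12 CPM in KO libraries, against 7.53 and 14.3 CPM in WT libraries (log2 ratio -0.80). That order came from Hist2h2be, since the rest of the cluster had 1.97 and 5.42 CPM in KO libraries and 2.29 and 3.59 CPM in WT libraries, with overlapping groups (log2 ratio 0.33). The full Hist1 sum was 305 and 383 CPM in KO libraries, against 332.5 and 332.05 CPM in WT libraries (log2 ratio 0.05). Without Hist1h2ap it was 56.0 and 101 CPM in KO libraries, against 80.5 and 43.4 CPM in WT libraries. There the KO libraries lay on both sides of WT replicate 1, and WT replicate 6 was below both (log2 ratio 0.34). That smaller sum keeps Hist1h2ao, all of whose coding stretches of 100 bases occur in Hist1h2ap. It therefore depends on how RSEM divided their reads. The 5 erythroid markers summed to 2.32 and 7.43 CPM in KO libraries and 6.36 and 20.2 CPM in WT libraries, with Hba-a1 at 0 in KO replicate 9 and WT replicate 1 and Hbb-bt at 0 in KO replicate 9. The 5 myeloid markers, none at 0, summed to 4.35 and 5.27 CPM in KO libraries and 6.82 and 8.497 CPM in WT libraries. Both sums were highest in WT replicate 6, as Hist2h2be, Hist3h2a and Hist3h2ba were, and their part in these values was not tested.

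**Figure D3:**
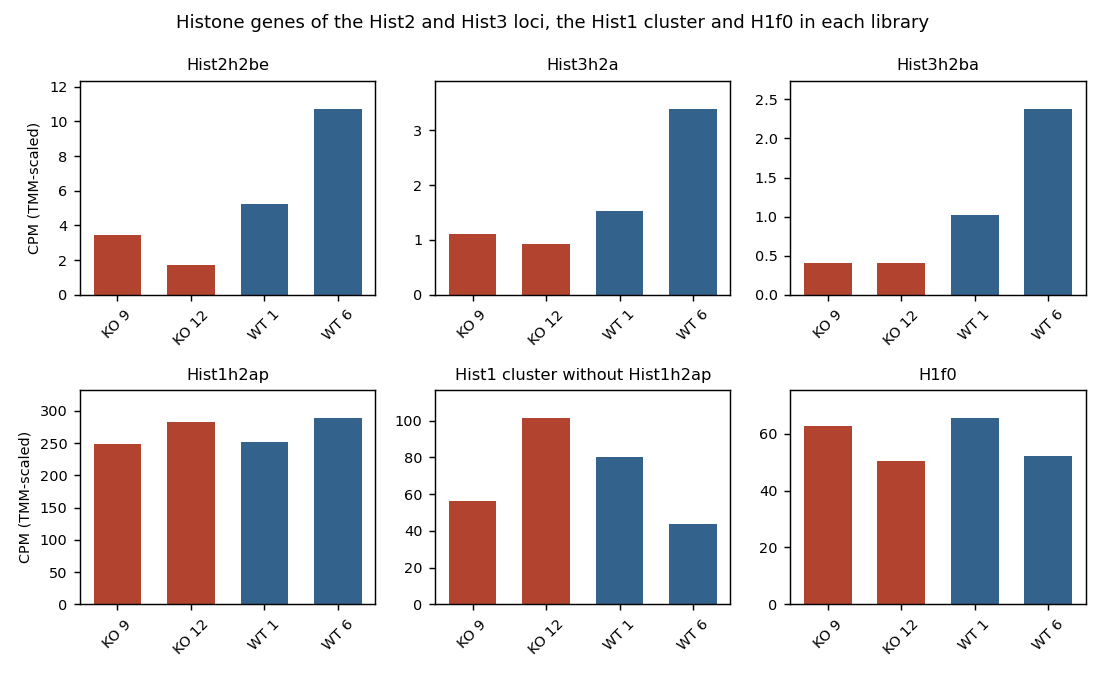
Level of Hist2h2be, Hist3h2a, Hist3h2ba, Hist1h2ap, the Hist1 cluster without Hist1h2ap, and H1f0 in each library (bars, CPM scaled by TMM, axes from 0; KO in red at the left, WT in blue). The genes in the top row are lowest in the KO libraries and highest in WT replicate 6, with Hist2h2be between 1.70 and 10.7 CPM, while the Hist1 cluster without Hist1h2ap is lowest in WT replicate 6 at 43.4 CPM.

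The upstream sequences of these 3 genes are shown because all 3 were highest in WT replicate 6, followed by WT replicate 1. They come from RefSeq (GRCm38.p6), in transcript direction, with matches on either strand to CCAAT, to the TATA sequence TATAAA, or to the octamer ATTTGCAT in capitals. For Hist3h2ba and Hist3h2a they are the 250 bases before the start (chr11:58948661-58948910 and chr11:58954435-58954684, both plus strand). For Hist2h2be they are the 191 bases that separate it from Hist2h2ac (chr3:96220881-96221071), printed on the minus strand, in the direction of Hist2h2ac.
Hist3h2ba: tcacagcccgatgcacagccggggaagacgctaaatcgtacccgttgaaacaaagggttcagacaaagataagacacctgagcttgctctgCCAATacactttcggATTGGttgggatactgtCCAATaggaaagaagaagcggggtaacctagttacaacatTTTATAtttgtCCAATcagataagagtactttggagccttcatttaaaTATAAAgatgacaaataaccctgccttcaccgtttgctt
Hist3h2a: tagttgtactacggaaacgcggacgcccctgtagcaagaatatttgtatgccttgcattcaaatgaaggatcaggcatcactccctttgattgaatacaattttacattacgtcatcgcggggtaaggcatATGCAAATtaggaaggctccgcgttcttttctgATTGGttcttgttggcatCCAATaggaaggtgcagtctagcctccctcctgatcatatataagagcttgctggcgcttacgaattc
Hist2h2ac to Hist2h2be: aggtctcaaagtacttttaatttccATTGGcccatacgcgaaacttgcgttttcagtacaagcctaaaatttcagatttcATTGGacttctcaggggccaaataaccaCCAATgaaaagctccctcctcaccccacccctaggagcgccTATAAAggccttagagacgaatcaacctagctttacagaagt
CCAAT, on either strand, occurs in all 3 windows and in 50 of the 61 members with a promoter entry (82.0%), against 34.5% of 27025 promoters of the same length. By class it was in 18 of 18 H2A and 15 of 15 H2B promoters but in 3 of 12 H4 promoters (25%). TATAAA was in 45.9% of the members' promoters and 13% of all promoters. ATTTGCAT was in 12 members (19.7%), 7 of H2A and 5 of H2B, and in 1.61% of all promoters. A match is a description of these letters only, and the motifs can overlap one another.

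Near-identical copies limit what a value of a single gene means, since RSEM divides reads that fit more than 1 copy. The median share of a member's coding stretches of 100 bases that also occur in another member was 0% for H1, 74.3% for H2A, 52.1% for H2B, 68.6% for H3 and 60.1% for H4. Hist1h2ap and Hist1h2ao were fully shared, and their promoters have a run of 150 bases in common. Together they had 269 and 313 CPM in KO libraries, against 277 and 306 CPM in WT libraries (log2 ratio -0.002). In each of the pairs that follow, at least 1 library had all of its counts under 1 copy. Hist1h4n was at 0.870 and 0 CPM in KO libraries and 1.17 and 0.354 CPM in WT libraries, whereas its copy Hist1h4m was at 0 and 1.76 CPM in KO libraries and at 0 in both WT libraries. Hist1h2br had 0.116 and 0.671 CPM in KO libraries and 2.34 and 0 CPM in WT libraries, and its copy Hist1h2bq had 0.116 and 0.465 CPM in KO libraries and 0.102 and 1.11 CPM in WT libraries. Hist2h2aa1 had 1.04 and 2.94 CPM in KO libraries and 1.37 and 2.12 CPM in WT libraries, while its copy Hist2h2aa2 was at 0 in every library. The sums by class do not depend on how reads were divided among copies of a class. Sums that leave out a copy with shared reads, such as the Hist1 sum without Hist1h2ap, do depend on it.

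Histone mRNAs are short, and in these libraries fold changes followed gene length. Other genes with an implied length of 300 to 800 bases, of which 505 were tested, had a median log2 fold change of 0.40, where the members' median was 0.21. The 158 of them under 10 CPM had a median of 0.21. With the trend on length removed from each library, the members' median was -0.18 and that of the 505 genes 0.01. The 158 genes under 10 CPM then had a median of -0.22. The direction of the members' median therefore flips with that choice, while the trend on GC content left it at 0.05. Hist1h2ap had a log2 fold change of -0.44 with the length trend removed, and 16.4% of the 505 genes were below it before removal. Of the members tested, 19 of 32 were lowest in WT replicate 6 and 18 highest in KO replicate 12. For the 505 genes of like length the counts were 304 and 386, and for the 158 of them under 10 CPM they were 50 and 72. For all 12816 genes they were 4244 and 4541.

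**Figure D4:**
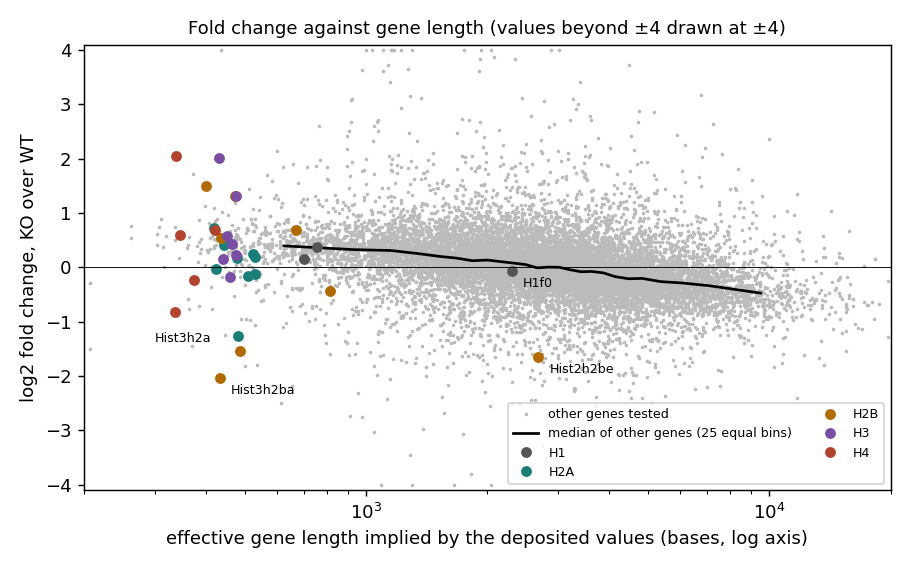
Log2 fold change KO over WT against the effective gene length implied by the deposited values (bases, log axis), with members coloured by class, other genes in grey, and the black line giving the median of other genes in 25 bins of equal size. Short genes lie above 0 (median 0.40 at 300 to 800 bases), and Hist3h2a, Hist3h2ba and Hist2h2be lie below 0, at -1.27, -2.03 and -1.64.

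The genes that make, process and package histone mRNA and protein gave 0 calls in either direction in each list, all of whose genes present were tested. The S phase list held 37 genes of DNA replication and nucleotide supply, of which 25 had a log2 fold change above 0 and 12 below, with a median of 0.14. It summed to 7023 and 7618 CPM in KO libraries and 7471 and 6042 CPM in WT libraries. The libraries thus ranked KO replicate 12, WT replicate 1, KO replicate 9 and WT replicate 6. The Hist1 sum without Hist1h2ap and the H3 and H4 sums took the same order. The sum over all members, the full Hist1 sum and the H1, H2A and H2B sums did not. The summed B cell markers took the same order too, with the highest library at 1.82 times the lowest, where that ratio was 1.26 for the S phase list, 2.33 for the Hist1 sum without Hist1h2ap and 3.21 for the H3 sum. Of these 4 markers 3 had a log2 fold change above 0 and 1, Pax5, below, and 0 were called. The part of S phase genes or of B cells in the histone values was not tested. In the S phase list, Rpa2, a subunit of the protein that coats single-stranded DNA, had 101 and 121 CPM in KO libraries and 72.6 and 58.1 CPM in WT libraries, without overlap (log2 fold change 0.76, SE 0.23, adjusted p = 0.386 in edgeR). Pole, the catalytic subunit of a replicative DNA polymerase, had 181 and 137 CPM in KO libraries and 219.8 and 209 CPM in WT libraries, also without overlap (log2 fold change -0.43, SE 0.23, adjusted p = 0.447). Mcm6, a subunit of the replicative helicase, had 614 and 615 CPM in KO libraries and 620.4 and 461 CPM in WT libraries, and the groups overlapped. None of these passed the test.

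The 21 mitosis genes had 11 values above 0 and 10 below (median 0.01). Their summed level was 5594 and 4806 CPM in KO libraries and 5786 and 5754 CPM in WT libraries. It did not take the order of the Hist1 sum without Hist1h2ap. The mitosis genes named here did not go the same way. Ccnb1 (cyclin B) had 136 and 164 CPM in KO libraries and 117 and 83.0 CPM in WT libraries, without overlap (log2 fold change 0.59, SE 0.25, adjusted p = 0.416 in edgeR). Cdk1, its kinase partner, had 117 and 162 CPM in KO libraries and 106 and 84.8 CPM in WT libraries, also without overlap (log2 fold change 0.56, SE 0.25, adjusted p = 0.417). Mki67, the gene of the Ki-67 proliferation antigen, ran the other way, with 1190 and 671 CPM in KO libraries and 1354 and 1435 CPM in WT libraries without overlap and without passing the test (log2 fold change -0.58, SE 0.29, adjusted p = 0.429).

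Of the 31 genes for transcription, 3′ processing and decay of histone mRNA, 15 were above 0 and 16 below, with a median of -0.01. Slbp, whose protein binds the stem-loop, had 127 and 170.1 CPM in KO libraries and 178 and 132 CPM in WT libraries. The groups overlapped (log2 fold change -0.06, SE 0.25, adjusted p = 0.928 in edgeR; chosen for its role after its values were seen). Gon4l, which encodes a nuclear regulator of transcription, had 261 and 206 CPM in KO libraries, against 161 and 135 CPM in WT libraries. The groups did not overlap, and the log2 fold change of 0.66 (SE 0.23, adjusted p = 0.412) did not pass the test. Tut4, a terminal uridylyltransferase tied to histone mRNA decay in human cells, had 138 and 67.8 CPM in KO libraries, against 151 and 198 CPM in WT libraries. All KO values were below WT (log2 fold change -0.76, SE 0.35, adjusted p = 0.423). Srrt, a partner of the cap-binding complex and the gene of the list with the most counts, had 325 and 366 CPM in KO libraries and 351 and 233 CPM in WT libraries, with overlap.

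Of the 25 histone chaperone genes, 19 were above 0 and 6 below, with a median of 0.13. Ipo4, which imports H3 and H4 into the nucleus, had 87.9 and 101 CPM in KO libraries, against 70.1 and 42.6 CPM in WT libraries, without overlap (log2 fold change 0.74, SE 0.28, adjusted p = 0.412 in edgeR). Atrx, which works with DAXX to deposit a replacement form of H3, had 224 and 123 CPM in KO libraries, against 299.7 and 288 CPM in WT libraries, also without overlap (log2 fold change -0.76, SE 0.30, adjusted p = 0.413). Npm1, the chaperone with the most counts, had 2627 and 2739 CPM in KO libraries and 2185 and 1600 CPM in WT libraries. It was higher in both KO libraries, with a log2 fold change of 0.50 (SE 0.22, adjusted p = 0.417).

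The 11 genes listed as replication-independent histones had 6 values above 0 and 5 below (median 0.07). Cenpa, the H3 variant of centromeres, had 136 and 128 CPM in KO libraries, against 101 and 92.4 CPM in WT libraries. The groups did not overlap (log2 fold change 0.45, SE 0.21, adjusted p = 0.421 in edgeR). H2afx, the H2A variant phosphorylated at DNA breaks, ran the other way, with 124 and 147 CPM in KO libraries, against 162 and 222 CPM in WT libraries (log2 fold change -0.50, SE 0.24, adjusted p = 0.425). H2afy, which encodes macroH2A, had the most counts, at 551 and 434 CPM in KO libraries and 533 and 503 CPM in WT libraries, with overlapping groups.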

How the data were processed

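Th0 cells were lysed in TRIzol for total RNA and sequenced on the Illumina HiSeq platform, per the labels' protocols. The submitters' processing notes name Bowtie2 and RSEM and the builds GRCm38.p6 and mm10. Tool versions, settings, counting strand and the kind of RNA selection used were not given in the sources used here. Per the submitters' processing notes and the values, the authors deposited an expected count per gene and library, in which RSEM divides reads among matching copies. The authors also deposited an expression value scaled by gene length, with no stated unit, which was taken as FPKM because for 651 genes with 1 annotated transcript the ratio of implied to annotated length had a median of 0.997. Averages by group that the authors also gave were left unused.

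Expected counts were rounded to whole numbers, filtered with filterByExpr (minimum count of 10), scaled by TMM and tested with the robust quasi-likelihood F test of edgeR 4.0.16 (limma 3.58.1, R 4.3.3), two-sided, KO over WT, with Benjamini-Hochberg adjustment over the 12816 genes tested and a threshold of 0.05. The fit had 2 residual degrees of freedom. CPM sums and medians over genes are descriptions without a test. Library depth was 17284613 to 20418766 counts, so 3 counts correspond to 0.152 to 0.174 CPM.

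Of the gene IDs, 99.3% matched RefSeq (GRCm38.p6), including all 66 members, of which 61 had a promoter entry. Members named in full were the 3 with most CPM in each class and the 3 with the smallest p in each direction, and in each other list the 2 with the smallest p and the 1 with the most CPM. Hist1h2ai and the pairs of identical copies were named after their values were seen. The members and lists were chosen with earlier results of these data known. The sums of the cell type markers are over the genes named or counted with them, and 1 further marker is not reported here. The comparison with B cell markers was made after the values were seen. Alternatives were other scaling factors, filters, DESeq2 1.42.0, limma-voom, offsets for gene length, and leaving out each library. The GC offset, the sums by genomic cluster, and the sums without Hist1h2ap, Hist1h2ao or H1f0 were added after the data were seen.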

Additional observations from a re-analysis of the deposited data

How the results depend on the processing

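No member was called under any alternative tried. With 2 libraries per group, calls over all genes depended on the settings: the 1 gene called higher became 48 without a filter, 88 with DESeq2 and 0 to 113 when a library was left out, and the 0 called lower became 33 without a filter, 97 with DESeq2, 1 with the length trend removed and 0 to 81 when a library was left out. Leaving out a library moved the members' median log2 fold change between -0.17 and 1.09, the log2 ratio of the sum over all members between -0.12 and 0.11, and that of the H2B sum between -0.77 and 0.088. The sum over all members had a log2 ratio of -0.35 with the length trend removed and -0.15 with the GC trend removed, and the H2A sum -0.41 and -0.19. The H1 sum had 0.47 without H1f0 and Hist1h1t, and the H2B sum 0.23 in FPKM. Removing the length trend turned the sign of Hist1h1c (-0.21), Hist1h2ao (-0.15) and Hist1h3e (-0.26). Leaving out a library turned the sign of log2 fold changes that lay near 0 or had large SEs, with ranges of -0.23 to 0.13 for H1f0, -0.11 to 0.36 for Hist1h1c, -0.39 to 2.11 for Hist1h1d, -0.12 to 0.074 for Hist1h2ap, -0.095 to 0.53 for Hist1h2ao, -0.44 to 2.78 for Hist1h2ag, -0.13 to 1.63 for Hist1h3c, -0.45 to 1.09 for Hist1h3e, -7.56 to 0.79 for Hist1h3h, -0.30 to 6.89 for Hist1h4b, -0.27 to 0.087 for H2afy, -0.024 to 0.58 for Srrt and -0.017 to 0.42 for Mcm6. The values of -7.56 and 6.89 rest on a group at 0 and depend on the prior count. Where a group was left with 1 library, that library was assumed to vary like the other group. Beyond the length trend, the cause of these shifts was not tested. No paired analysis was possible because the groups share no replicate number. The 2 libraries per group and the low counts of most members limit what could be detected.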
